A study of Drosophila melanogaster with 9 samples.

Results

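The genes followed here encode small secreted immune peptides: 4 Drosomycin-like genes (Drsl2, Drsl3, Drsl4 and Drsl5) and the 2 Daisho genes (Dso1 and Dso2). They are 6 of the 17558 genes listed, found by symbol and chosen by their measured levels in these same libraries. Their levels and differences in all 3 groups are therefore given as a description, with fold changes and standard errors (SE) and no p-value. Poly(A) RNA was sequenced from heads of female Drosophila melanogaster that had been adult for 1 to 2 days at 25 °C and 60% humidity. The 9 libraries form 3 groups of 3: flies homozygous for Ime4, flies heterozygous for Ime4, and control flies labelled wt. Ime4 encodes the catalytic subunit of the enzyme that writes m6A on messenger RNA. The labels name neither the Ime4 allele nor the strain of the controls, and they do not say whether the groups share a genetic background. Separate cultures or broods are not named either, so spreads and p-values describe the variation between these libraries, which may be technical.

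Drosomycin is a disulphide-bonded antifungal peptide that the fat body secretes into the haemolymph when the Toll pathway is activated by fungi or Gram-positive bacteria. The Drosomycin-like genes are its paralogues and lie near it on the left arm of the third chromosome. The Daisho peptides are short haemolymph peptides that are also induced through Toll and act against filamentous fungi. In bulk tissue, fewer cells of a type and less RNA per cell cannot be told apart.

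The 4 Drosomycin-like genes stand head to tail on the plus strand of 3L within 2796 bases (BDGP6 coordinates). Drsl2 (FBgn0052279) lies at 3L 3314349 to 3314681, Drsl3 (FBgn0052283) at 3314996 to 3315355, Drsl4 (FBgn0052282) at 3315620 to 3315942 and Drsl5 (FBgn0035434) at 3316781 to 3317144. Each is annotated as a single exon, of 333, 360, 323 and 364 bases in that order, with a coding sequence of 70, 71, 71 and 69 codons. The gaps between them are 314, 264 and 838 bases. The Daisho genes lie on 2R, with Dso1 (FBgn0040653) on the minus strand at 20868496 to 20869321 and Dso2 (FBgn0067905) on the plus strand at 20870392 to 20870678. Their starts face away from each other across 1070 bases. Dso1 has 42 codons and 2 annotated transcripts of 418 and 767 bases, and Dso2 has 46 codons and 1 transcript of 223 bases. No annotated gene overlaps any of the 6.

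Reads counted in genes ranged from 3607203 to 4272550 in homozygous, 3420013 to 3684110 in heterozygous and 2730289 to 3449227 in control libraries. Mettl3, the name of Ime4 in the annotation, had 3, 3 and 2 reads in homozygous, 8, 13 and 16 in heterozygous and 17, 19 and 18 in control libraries. The head markers elav and nSyb (neurons), ninaE (photoreceptors) and repo (glia) had at least 151 reads in every library, but the marker sums moved with the groups. Summed over 16 neuron and photoreceptor genes the level was 23969 to 25798 CPM in homozygous, 28875 to 31509 in heterozygous and 30851 to 32701 in control libraries, and summed over 7 glia genes it was 5415 to 6738, 5247 to 5965 and 4717 to 5179 CPM in the same order of groups. Of the 16 neuron and photoreceptor genes 5 were called lower in homozygous heads than in control heads (Syt1, Arr2, elav, ninaE and ninaC) and 2 higher (Rh5 and chp), while in heterozygous heads 2 were lower (Syt1 and elav) and 3 higher (Rh5, Arr1 and trp). Most of the glia sum was Gs2, at 4782, 4238 and 3762 CPM in homozygous, heterozygous and control heads. Of the 7 glia genes edgeR called 0 higher in any comparison, and DESeq2 called 1 higher in heterozygous against control heads. The gene alrm was lower in homozygous than in control heads (log2 fold change -0.61). In homozygous against heterozygous heads 2 were lower (Eaat1 and alrm). Summed over the 38 genes of a digestive enzyme list, which also holds the transcription factor gene lab, homozygous replicates 1 and 2 stood apart. They had 954 and 1119 CPM (TMM-scaled reads per 1000000 reads in genes), against 118 to 185 in the other 7 libraries. Summed over 18 eggshell genes, control replicate 3 stood apart at 359 CPM, against 1.68 to 11.9 in the other 8. Reads that the counting assigned to no feature made up 17.2 to 20.0% of the homozygous, 19.1 to 28.4% of the heterozygous and 26.2 to 31.7% of the control libraries. Reads without a unique position made up 8.96 to 12.3%, 10.5 to 14.01% and 15.1 to 15.96% in the same order of groups. The part of these sums and shares in the results was not tested.

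Drsl4 was the member that differed most: it was scarce in control heads and abundant in heads of both Ime4 groups. It had 342, 333 and 390 reads in homozygous, 189, 201 and 239 in heterozygous and 8, 12 and 5 in control libraries. Scaled to library size, Drsl4 stood at 90.0 ± 7.01 CPM in homozygous, 60.8 ± 10.8 in heterozygous and 2.62 ± 1.02 in control heads (SD, n = 3 each). No homozygous or heterozygous library came near the control range, which ended at 3.41 CPM. The log2 fold change of Drsl4 was 5.09 ± 0.24 in homozygous against control heads and 4.53 ± 0.24 in heterozygous against control heads (SE), the 5th highest of 8972 tested genes in both comparisons. These comparisons share their control libraries. Between the Ime4 groups Drsl4 differed far less, by 0.57 ± 0.16 on the log2 scale. The homozygous libraries, from 81.9 to 94.9 CPM, still lay above the heterozygous ones, from 53.0 to 73.1 CPM.

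Drsl5, the next gene on the same strand, stood at similar levels in all groups. It had 93, 93 and 106 reads in homozygous, 81, 55 and 92 in heterozygous and 51, 60 and 85 in control libraries. These were 24.7 ± 2.09, 22.1 ± 6.39 and 20.3 ± 4.12 CPM (SD, n = 3 each), and the 3 groups overlapped. The log2 fold change of Drsl5 was 0.28 ± 0.22 in homozygous and 0.12 ± 0.23 in heterozygous heads against control, and 0.16 ± 0.22 between the Ime4 groups (SE).

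The other Drosomycin-like genes were at or near the limit of detection. Drsl2 had 3, 6 and 2 reads in homozygous, 4, 5 and 4 in heterozygous and 1, 6 and 1 in control libraries, too few to enter the fit across genes. Pooled over a group, Drsl2 had 11 reads in homozygous, 13 in heterozygous and 8 in control heads. Per 1000000 reads these are 0.922 (0.460 to 1.65), 1.22 (0.648 to 2.08) and 0.855 (0.369 to 1.68), with exact 95% Poisson intervals that cover counting error only. The intervals overlapped, so no difference in Drsl2 was detectable at this depth. Drsl3 had 0 reads in all 9 libraries. Its exact 95% Poisson intervals over a group reached up to 0.309 reads per 1000000 in homozygous, 0.345 in heterozygous and 0.394 in control heads. Of the paralogues outside the 6 genes, Drsl1 had 0 reads in all libraries and Drsl6 a single read in heterozygous replicate 1. The identifier of Drosomycin itself (Drs) in the annotation was not among the listed identifiers, and that gene was not analysed here.

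Both Daisho genes were graded over the 3 groups, highest in homozygous and lowest in control heads. Dso1 had 1793, 1308 and 1225 reads in homozygous, 447, 472 and 888 in heterozygous and 168, 274 and 319 in control libraries. These were 364 ± 65.8, 176 ± 82.5 and 77.9 ± 15.6 CPM (SD, n = 3 each). Dso2 had 534, 525 and 374 reads in homozygous, 167, 137 and 265 in heterozygous and 43, 88 and 92 in control libraries, or 122 ± 28.4, 55.4 ± 22.6 and 22.6 ± 5.86 CPM (SD, n = 3 each). No 2 groups overlapped for either gene. Heterozygous replicate 3 held the highest value of its group for both, at 271 CPM of Dso1 and 81.0 CPM of Dso2, close below the lowest homozygous values of 298 and 91.0 CPM in replicate 3.

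Dso1 and Dso2 differed between the groups by similar amounts. The log2 fold changes in homozygous against control heads were 2.22 ± 0.26 for Dso1 and 2.41 ± 0.27 for Dso2 (SE). In heterozygous against control heads they were 1.17 ± 0.26 and 1.27 ± 0.28, and in homozygous against heterozygous heads 1.05 ± 0.25 and 1.14 ± 0.25. Without heterozygous replicate 3 the value of Dso1 was 0.73 in heterozygous against control heads and 1.48 between the Ime4 groups.

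**Figure D1:**
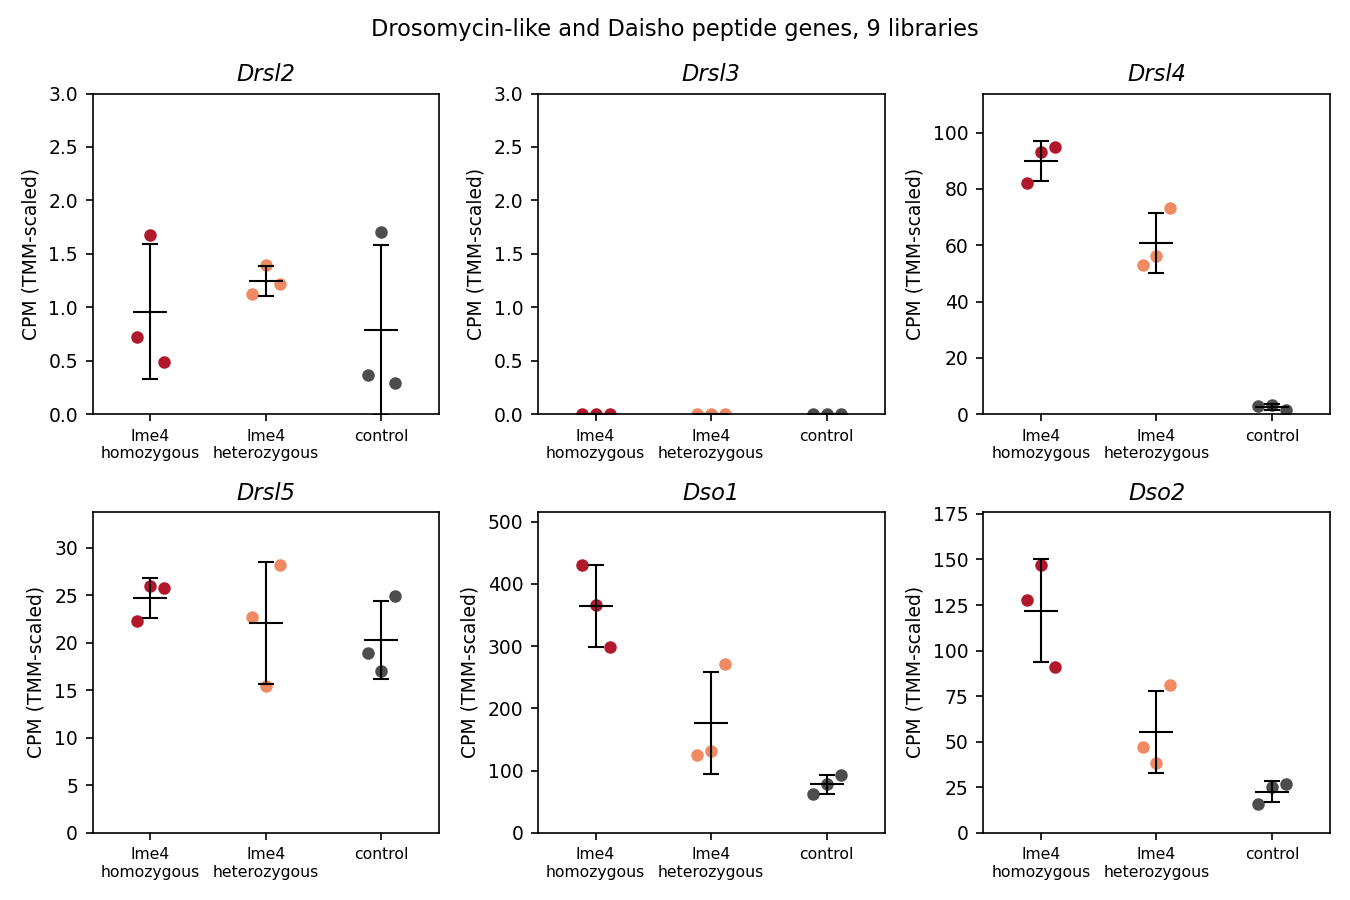
Level of each of the 6 genes in CPM (TMM-scaled, linear axes that differ between panels) in Ime4 homozygous, Ime4 heterozygous and control heads; points are libraries, the bars mean ± SD (n = 3). Drsl4 is near 0 in control heads only, Drsl5 overlaps in all groups, Dso1 and Dso2 are graded, and Drsl2 and Drsl3 stay below 2 CPM.

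The place of the heterozygous heads between the other groups can be given for each gene that was graded. Expressed as a share of the difference between control and homozygous means, on the linear CPM scale, the heterozygous mean lay at 66.6% for Drsl4, at 34.4% for Dso1 and at 33.0% for Dso2. These shares are descriptions without an error of their own, and whether they differ was not tested. Without heterozygous replicate 3 they were 59.6%, 17.8% and 20.1%, as calculated after the values were seen. Among the 12 Bomanins, another family of short Toll-induced peptides, the heterozygous mean lay between those of the other groups for 8, at shares from 11.96% (BomS6) to 74.3% (BomS5), and above both for the other 4 (BomT1, BomT3, BomBc1 and BomBc3).

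Within a library, neighbouring members can be set against each other without any scaling between libraries. For each read of Drsl5 there were 3.65 ± 0.0564 reads of Drsl4 in homozygous, 2.86 ± 0.699 in heterozygous and 0.139 ± 0.0723 in control libraries (SD, n = 3 each). The lowest ratio in an Ime4 library was 2.33 and the highest in a control library 0.200. The more abundant Drosomycin-like transcript was therefore Drsl4 in all 6 Ime4 libraries and Drsl5 in all 3 control libraries, also per base of exon. The ratio of Dso1 to Dso2 reads was 3.04 ± 0.478 in homozygous, 3.16 ± 0.419 in heterozygous and 3.50 ± 0.397 in control libraries (SD, n = 3 each), with overlapping ranges from 2.49 to 3.91.

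**Figure D2:**
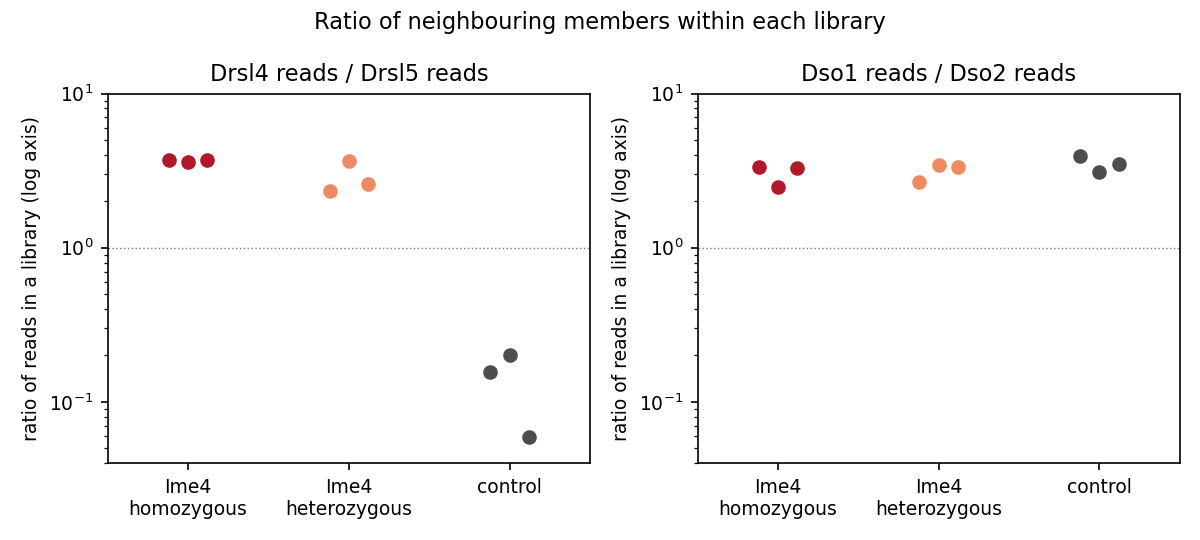
Reads of Drsl4 per read of Drsl5 (left) and of Dso1 per read of Dso2 (right) in each of the 9 libraries, by group, on a log axis; the dotted line marks equal numbers of reads. The Drsl4 to Drsl5 ratio lies between 2.33 and 3.68 in the Ime4 libraries and between 0.0588 and 0.200 in controls, while the Dso1 to Dso2 ratio stays between 2.49 and 3.91 in all.

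Levels of different genes were compared per kilobase of exon (RPKM, the CPM divided by exon length). In homozygous heads Dso2 stood at 547 ± 127, Dso1 at 475 ± 85.7, Drsl4 at 278 ± 21.7 and Drsl5 at 67.8 ± 5.73 RPKM (SD, n = 3 each). In heterozygous heads the levels were 248 ± 101, 230 ± 108, 188 ± 33.3 and 60.7 ± 17.5 RPKM in the same order of genes. In control heads Dso1 and Dso2 both stood at 102 RPKM (SD 20.3 and 26.3), Drsl5 at 55.8 ± 11.3 and Drsl4 at 8.10 ± 3.15 RPKM. Within single libraries the ratio of Dso1 to Dso2 per base of exon was 0.724 to 0.976 in homozygous, 0.778 to 1.00 in heterozygous and 0.905 to 1.14 in control heads. Whether the 2 genes differ in level was not tested and depends on the length used. The Dso1 values use the union of both annotated transcripts. With the shorter transcript of 418 bases Dso1 would stand at 872 ± 157, 422 ± 197 and 186 ± 37.3 RPKM in homozygous, heterozygous and control heads.

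In homozygous against control heads 3 of the 4 members with enough reads passed the quasi-likelihood test of edgeR (Benjamini-Hochberg adjusted p under 0.05), all upward (Drsl4, Dso1 and Dso2), where 10.9% of all tested genes were called higher and 8.77% lower. The libraries of the 3 genes did not overlap between the groups, which was the case in the same direction for 17.9% of all tested genes. In heterozygous against control heads the same 3 genes passed, against 5.55% of all tested genes called higher and 3.77% lower, and did not overlap, against 16.1%. In homozygous against heterozygous heads Dso1 and Dso2 passed, against 3.38% called higher and 2.11% lower, and Drsl4, Dso1 and Dso2 did not overlap, against 13%. Because these values were known when the genes were chosen, the counts carry no weight as evidence. The same applies to the fits with a library left out, which are given as a description. The upward calls of Drsl4, Dso1 and Dso2 in homozygous against control heads held when any 1 library was left out. In heterozygous against control heads the count fell to 1 (Drsl4) without heterozygous replicate 3 or control replicate 1 and to 2 without control replicate 2. In homozygous against heterozygous heads it fell to 0 without homozygous replicate 2 or heterozygous replicate 1 or 2. It fell to 1 (Dso2) without homozygous replicate 1 or control replicate 2, and also with only these 2 groups in the fit. It was 3 without homozygous replicate 3 or control replicate 3, without the filter on low counts, and by DESeq2 or limma-voom.

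In homozygous replicates 1, 2 and 3 Drsl4 stood at 81.9, 93.1 and 94.9 CPM, beside digestive enzyme sums of 954, 1119 and 185 CPM. Without homozygous replicates 1 and 2, the libraries with high digestive transcripts, the log2 fold change of Drsl4 in homozygous against control heads was 5.15 ± 0.27 (SE). That of Dso1 was then 1.90 ± 0.29 and that of Dso2 1.96 ± 0.29. In homozygous against heterozygous heads the 2 Daisho genes then stood lower than with all libraries, at 0.73 ± 0.29 and 0.69 ± 0.28. These values rest on 1 homozygous library, which is assumed to vary like the others. The part of the digestive transcripts in the values of Drsl4 was not tested beyond this.

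The sum over the fat body list kept the order of Dso1 within the Ime4 groups and not within the control group. Summed over 19 fat body genes, each with reads, the level was 7028 to 13335 CPM in homozygous, 10772 to 15003 in heterozygous and 6886 to 9206 in control libraries. A large part of it came from the yolk protein genes Yp1, Yp2 and Yp3. In homozygous heads these stood at 2497 ± 1282, 1525 ± 566 and 1492 ± 726 CPM (SD, n = 3). They did not pass the test in homozygous against control heads, and Yp2 passed in heterozygous against control heads. Whether the order holds without them was not tested. Homozygous replicate 3 had the lowest and heterozygous replicate 3 the highest sum of its group, as for Dso1 and Dso2. The other replicates did not keep the order for Dso2. It stood at 128, 147 and 91.0 CPM in homozygous and 46.8, 38.4 and 81.0 CPM in heterozygous replicates 1, 2 and 3. Among the controls the library with the highest fat body sum (9206 CPM) had the lowest Dso1 level (62.4 CPM), and the one with the lowest sum (6886 CPM) had the highest (93.6 CPM). Of the 17 fat body genes tested, 7 rose in homozygous and 8 in heterozygous heads against control, and 2 rose between the Ime4 groups. The part of this in the result was not tested. The 12 haemocyte markers summed to 1136 to 1278, 1261 to 1371 and 1019 to 1206 CPM in homozygous, heterozygous and control libraries, most of it from the collagen genes Col4a1 and vkg. Of 11 haemocyte markers tested, 3 were higher in homozygous heads than in control heads (lz, PPO2 and srp, with log2 fold changes of 1.18, 1.87 and 0.59) and Pxn was lower (-0.65). In heterozygous heads PPO2 (1.91) and vkg (0.40) were higher than in control heads and 0 were lower by edgeR, DESeq2 or limma-voom, with 1 lower at an unadjusted p under 0.05. The prophenoloxidase gene PPO2 was scarce, at 6.18 ± 1.09 CPM in homozygous, 6.39 ± 1.46 in heterozygous and 1.70 ± 0.528 in control heads (SD, n = 3). The part of these genes in the result was not tested.

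**Figure D3:**
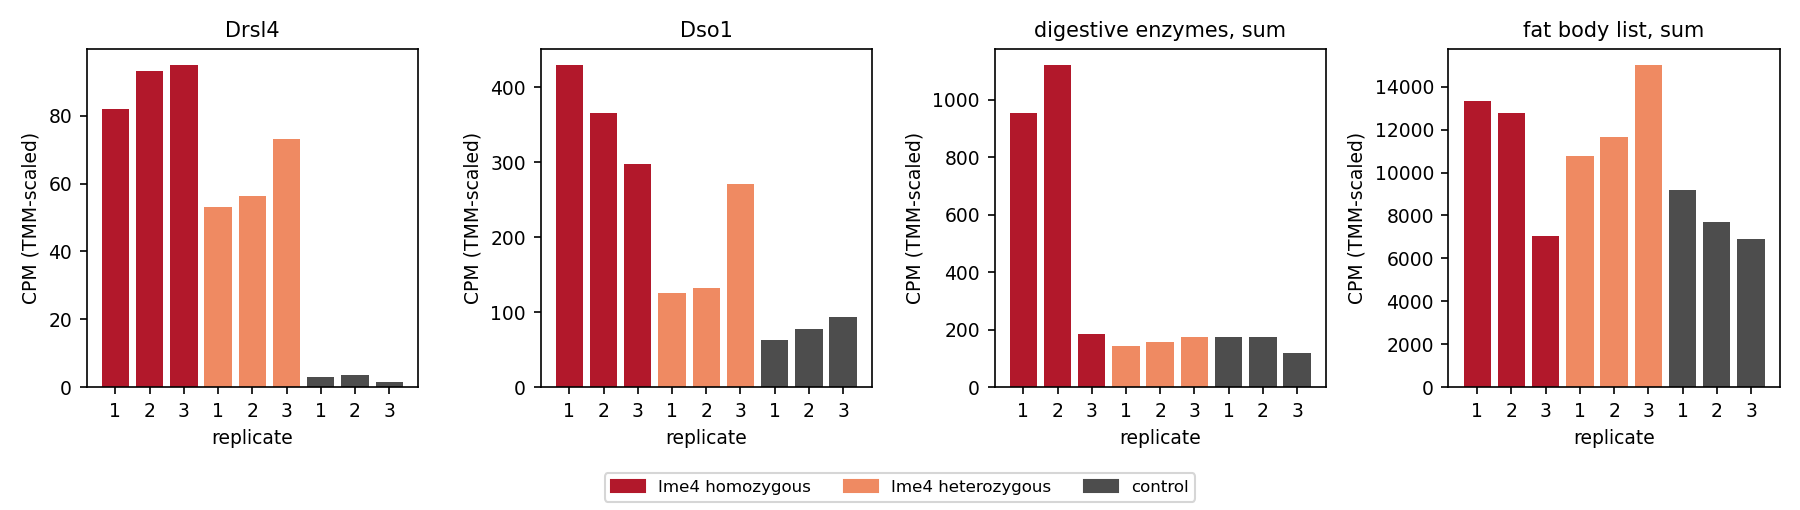
CPM (TMM-scaled, bars from 0) of Drsl4, Dso1, the 38 genes of the digestive enzyme list summed and 19 fat body genes summed in each library, coloured by group, with replicate numbers on the horizontal axis. Digestive transcripts are high in homozygous replicates 1 and 2 only, while Drsl4 is high in all 6 Ime4 libraries. Replicates keep the same order for Dso1 and the fat body sum within each Ime4 group, and the reverse order within the control group.

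Short transcripts as a class had higher medians in the Ime4 groups. The 60 tested genes with at most 400 bases of exon had a median log2 fold change of 0.73 in homozygous and 0.40 in heterozygous heads against control and of 0.30 between the Ime4 groups, where the medians of all tested genes were 0.02, -0.01 and 0.02. Drsl4, Drsl5 and Dso2 belong to this class. With a correction for exon length in each library the log2 fold changes in homozygous against control heads were 4.66 ± 0.27 for Drsl4, 1.96 ± 0.24 for Dso1 and 1.85 ± 0.24 for Dso2 (SE). In heterozygous against control heads they were 4.26 ± 0.28, 1.02 ± 0.24 and 0.94 ± 0.24. Between the Ime4 groups they were 0.40 ± 0.18, 0.94 ± 0.23 and 0.90 ± 0.22, against 0.57, 1.05 and 1.14 without the correction. Drsl5 turned to the other side of 0 in both comparisons with control, at -0.13 ± 0.23 in each.

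Genes that flank the members were not used to choose them and were tested in the fit over all genes. Within 25 kb of the Drosomycin-like genes 8 other genes had enough reads, and 6 of them passed the test in no comparison. ZnT63C, a zinc transporter gene that ends 340 bases before Drsl2 on the same strand, stood at 113 ± 5.87 CPM in homozygous, 102 ± 6.82 in heterozygous and 120 ± 6.40 in control heads (SD, n = 3). Its log2 fold change was -0.09 ± 0.11 in homozygous and -0.23 ± 0.11 in heterozygous heads against control (SE; edgeR adjusted p = 0.602 and 0.230). On the other side Strip stood at -0.20 ± 0.16 and -0.04 ± 0.16 (edgeR adjusted p = 0.394 and 0.920).

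The neighbour with the largest change was CG12017, whose end lies 23453 bases before Drsl2. CG12017 had 16.9 ± 1.54 CPM in homozygous, 10.4 ± 1.47 in heterozygous and 4.96 ± 1.48 in control heads (SD, n = 3). It rose by 1.74 ± 0.24 on the log2 scale in homozygous against control heads (edgeR adjusted p = 3.32e-04, up to 0.00494 over the alternatives) and by 1.04 ± 0.26 in heterozygous against control heads (0.0225, up to 0.0993). The heterozygous call was lost without heterozygous replicate 2 or 3 or control replicate 1 or 3. CG14968, between CG12017 and ZnT63C, stood at 0.06 ± 0.36 in homozygous against control heads (edgeR adjusted p = 0.932). Gtpx rose by 0.44 ± 0.14 in homozygous against control heads (edgeR adjusted p = 0.0436), a call that held in 1 of 9 fits with a library left out, the one without control replicate 3, and that was lost by DESeq2, with only these groups in the fit and with the exon length correction (adjusted p of up to 0.160). kst, the heavy spectrin gene beyond Drsl1 and Drsl6, stood at -0.29 ± 0.11 and -0.35 ± 0.11 against control in homozygous and heterozygous heads (edgeR adjusted p = 0.0905 and 0.0774). In all, 2 of the 8 neighbours were called higher and 0 lower in homozygous against control heads, 1 and 0 in heterozygous against control heads and 0 and 0 in homozygous against heterozygous heads. Wherever edgeR gave a count of 0 for neighbours or for the peptide and pathway lists, DESeq2 and limma-voom gave 0 as well. At an unadjusted p under 0.05, 3 of the 8 neighbours were higher between the Ime4 groups and 1 was lower in each comparison with control.

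Beside the Daisho genes 2 neighbours had enough reads, and neither was called higher in any comparison. Ipk1, an inositol phosphate kinase gene that starts 113 bases after Dso2 on the same strand, stood at 11.1 ± 0.640 CPM in homozygous, 18.3 ± 0.780 in heterozygous and 12.3 ± 1.09 in control heads (SD, n = 3). It fell by 0.73 ± 0.18 on the log2 scale in homozygous against heterozygous heads (edgeR adjusted p = 0.0306), a call kept in 4 of 9 fits with a library left out and lost without homozygous replicate 1 or 2 or any heterozygous library, by DESeq2, with the replicate block and without both homozygous replicates 1 and 2 (adjusted p up to 0.0990). The homeobox gene otp fell by 1.05 ± 0.26 in homozygous against control heads with an edgeR adjusted p of 0.0122, or 0.0515 without control replicate 2.

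**Figure D4:**
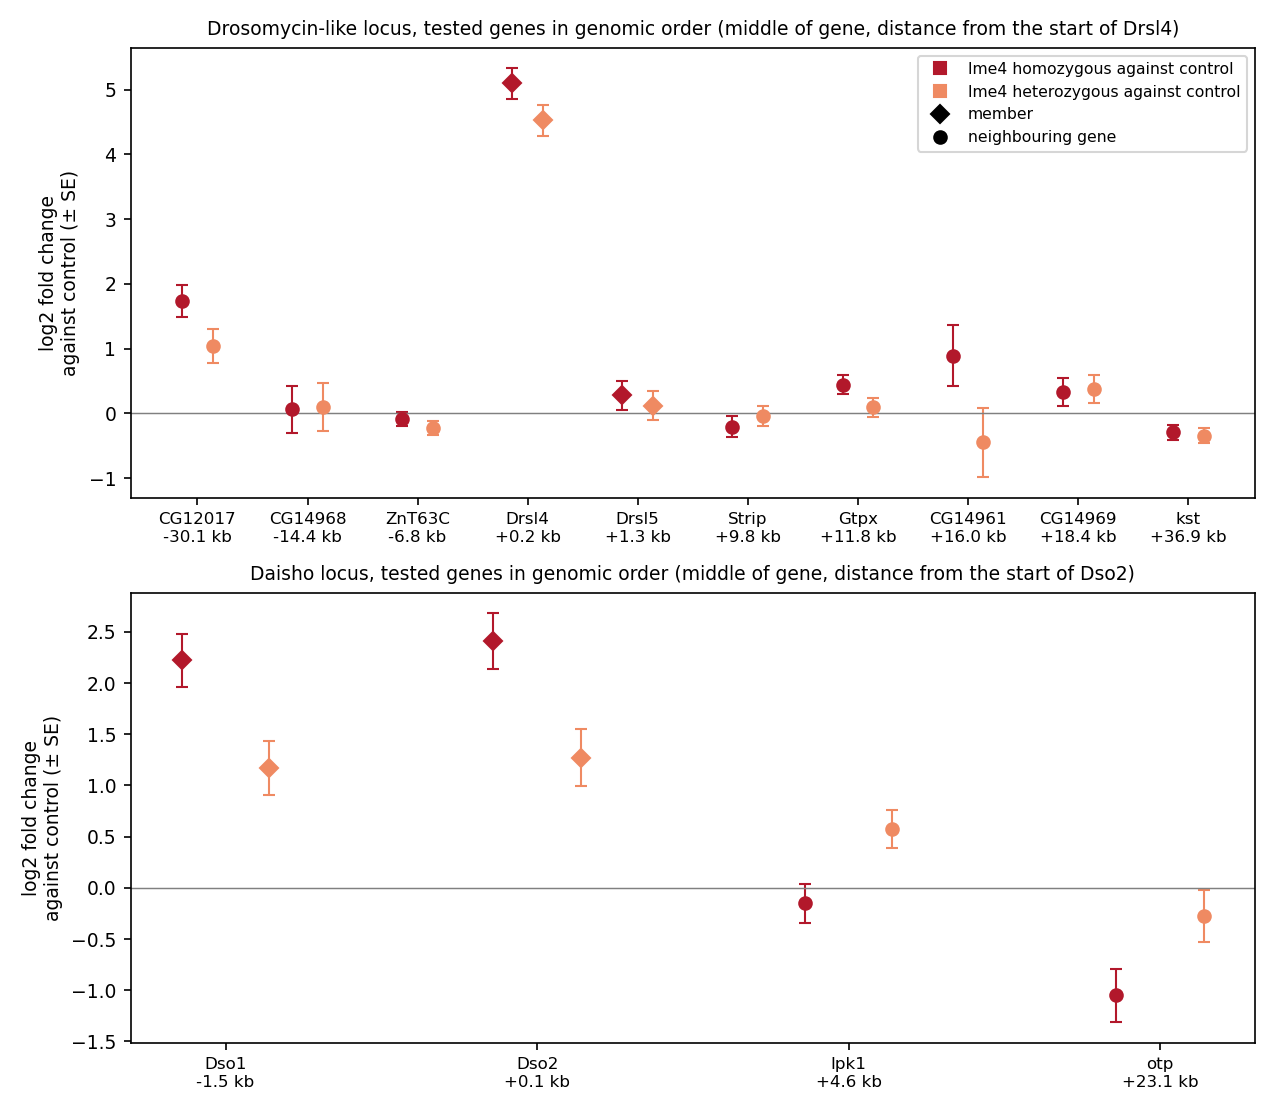
Log2 fold change against control (± SE) of every tested gene within 25 kb of the Drosomycin-like genes (top) and of the Daisho genes (bottom), in genomic order with the distance of the gene's middle from the start of Drsl4 or Dso2 in kb. Drsl4 at 5.09 and 4.53 stands between ZnT63C and Drsl5, which lie near 0, and Dso1 and Dso2 stand above Ipk1 and otp.

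The pattern over the 9 libraries was also compared with that of every other tested gene, by Pearson's r of log2 CPM. The libraries share their groups, so r reads the differences between groups as well as those between single libraries and is a description. The genes most like Drsl4 were CG16704 (r = 0.990), the galactokinase gene Galk (0.987) and the calmodulin gene Cam (0.986). Dso2 was the gene most like Dso1 and Dso1 the gene most like Dso2 (r = 0.987), followed by CG7530 (0.974) and Shmt (0.970) for Dso1 and by Shmt (0.981) and Arf1 (0.977) for Dso2. Dso1 came 372nd and Dso2 318th in the order of likeness to Drsl4 (r = 0.846 and 0.857). The genes most like Drsl5 were CG6701 (r = 0.946), eIF6 (0.926) and AIMP1 (0.924), and Drsl4 stood at 0.333.

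The other peptides and the pathways that are known to drive such genes were followed to see which moved beside the members. Of 12 Bomanins tested, 9 rose in homozygous against control heads and 0 fell, with a median log2 fold change of 1.58, and 8 rose and 0 fell in heterozygous against control heads, with a median of 1.16. BomS2 stood at 847 ± 134 CPM in homozygous, 541 ± 220 in heterozygous and 74.7 ± 20.8 in control heads (SD, n = 3; edgeR adjusted p = 2.30e-06 and 2.36e-05 against control). BomT2 rose by 2.90 ± 0.24 and 2.43 ± 0.25 on the log2 scale (edgeR adjusted p = 4.35e-06 and 4.69e-05). BomBc1 stood at -0.07 ± 0.43 and 0.34 ± 0.42. In homozygous against heterozygous heads 3 of 12 rose and 0 fell, with a median of 0.39, and the count fell to 1 when homozygous replicate 1, heterozygous replicate 1 or 2 or control replicate 2 was left out. The heterozygous against control count fell to 5 without heterozygous replicate 3. With the exon length correction 7 Bomanins were called higher in each Ime4 group against control, with medians of 1.23 in homozygous and 1.00 in heterozygous heads. Between the Ime4 groups it left 2, with a median of 0.22.

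Of 9 other antimicrobial peptide genes tested, 3 were higher and 1 was lower in each Ime4 group against control (median log2 fold changes 1.27 in homozygous and 1.499 in heterozygous heads). The genes called higher were DptB, CecC and Listericin in homozygous and Mtk, DptA and Listericin in heterozygous heads, so only Listericin was shared. Between the Ime4 groups 0 passed (median -0.22), with 1 in each direction at an unadjusted p under 0.05. Listericin stood at 86.2 ± 53.2 CPM in homozygous, 101 ± 9.68 in heterozygous and 35.8 ± 11.0 in control heads (SD, n = 3). Its call in homozygous against control heads held in 1 of 9 fits with a library left out. That in heterozygous against control heads (edgeR adjusted p = 0.0357) held in 3 of 9. Both calls were lost by DESeq2 and limma-voom. Dro, the drosocin gene, fell to 1.79 ± 1.28 CPM in homozygous and 1.79 ± 1.24 in heterozygous heads, against 11.6 ± 3.13 in control heads (SD, n = 3; edgeR adjusted p = 0.00177 and 0.00397). Mtk, the gene of the antifungal peptide metchnikowin, stood at 2.81 ± 1.53, 5.70 ± 2.07 and 0.672 ± 0.596 CPM and passed the test only in heterozygous against control heads (edgeR adjusted p = 0.0101, lost at 0.0549 without heterozygous replicate 1). Whether these effects differ between the Ime4 groups was tested directly for Mtk, which gave an edgeR adjusted p of 0.248 in homozygous against heterozygous heads. The upward count in homozygous against control heads was 0 without control replicate 2 or 3 and 1 without homozygous replicates 1 and 2, and in heterozygous against control heads it was 0 without heterozygous replicate 1.

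Of the components of the Toll pathway itself, 4 of 20 tested rose in homozygous against control heads and 0 fell (median 0.20), 1 rose in heterozygous against control heads and 0 fell (median 0.17), and 0 passed between the Ime4 groups (median 0.11), where 3 were higher at an unadjusted p under 0.05. In comparison, 10.9%, 5.55% and 3.38% of all tested genes were called higher. The 4 act outside the cell, upstream of the receptor. They were nec, a serpin that restrains the protease cascade (log2 fold change 0.76 ± 0.16, edgeR adjusted p = 0.00431), the protease gene Hayan (1.09 ± 0.24, 0.00660), the glucan recognition gene GNBP3 (0.60 ± 0.16, 0.0165) and the protease gene modSP (0.43 ± 0.14, 0.0387). Other listed genes that act there were not called in this comparison: PGRP-SA, PGRP-SD, GNBP1, spirit, grass, SPE, psh and spz. Only nec passed in heterozygous against control heads as well (0.62 ± 0.16, edgeR adjusted p = 0.0253), and that value missed the threshold without control replicate 1 or 2 or any heterozygous library. The modSP call was lost in all 9 fits with a library left out, and that of GNBP3 without homozygous replicate 2, control replicate 1 or 2, or both homozygous replicates 1 and 2. Without homozygous replicates 1 and 2 Hayan stood at 0.38 (edgeR adjusted p = 0.356). The list's count was 2 without homozygous replicate 2 or control replicate 1 or 2. Between the Ime4 groups the lowest p in the list were those of Hayan, at 0.68 ± 0.23 (edgeR adjusted p = 0.110), and of the adaptor gene Myd88, at 0.39 ± 0.15 (0.150).

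In the Imd pathway, which drives peptides against Gram-negative bacteria, 4 of 13 tested genes were higher and 1 was lower in homozygous against control heads (median 0.05), 1 rose and 0 fell in heterozygous against control heads (median 0.23), and 1 rose and 2 fell in homozygous against heterozygous heads (median 0.13). pirk, an inhibitor of the pathway, rose by 1.602 ± 0.33 in homozygous against control heads (edgeR adjusted p = 0.00451) with an adjusted p of 0.0860 without homozygous replicates 1 and 2. Rel, its transcription factor, stood at 78.6 ± 8.92 CPM in homozygous, 136 ± 21.4 in heterozygous and 82.5 ± 16.8 in control heads (SD, n = 3). It was higher in heterozygous than in control heads (0.72 ± 0.16, edgeR adjusted p = 0.0126) and lower in homozygous than in heterozygous heads (-0.79 ± 0.16, 0.0102), and both calls were lost without heterozygous replicate 3, the first also without control replicate 1 or 3. The upward count in homozygous against control heads was 1 without homozygous replicate 1 or 2, heterozygous replicate 1 or control replicate 3, and 0 without both homozygous replicates 1 and 2.

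Of 8 tested genes of the Turandot and JAK-STAT list 3 rose in homozygous against control heads (median 0.16), 1 rose in heterozygous against control heads (median 0.04) and 1 rose between the Ime4 groups (median 0.17), and 0 fell in any. TotA, a stress peptide gene, stood at 89.0 ± 34.5 CPM in homozygous, 31.1 ± 11.0 in heterozygous and 14.7 ± 2.93 in control heads (SD, n = 3). It rose by 2.61 ± 0.32 in homozygous against control heads (edgeR adjusted p = 1.07e-04) and by 1.51 ± 0.29 in homozygous against heterozygous heads (0.00857), the second call being lost without heterozygous replicate 2 or 3 or without homozygous replicates 1 and 2. vir-1 rose by 0.88 ± 0.13 in homozygous and 0.65 ± 0.13 in heterozygous heads against control (edgeR adjusted p = 5.56e-04 and 0.00804), and the heterozygous call was lost without heterozygous replicate 3 (0.0580).

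**Figure D5:**
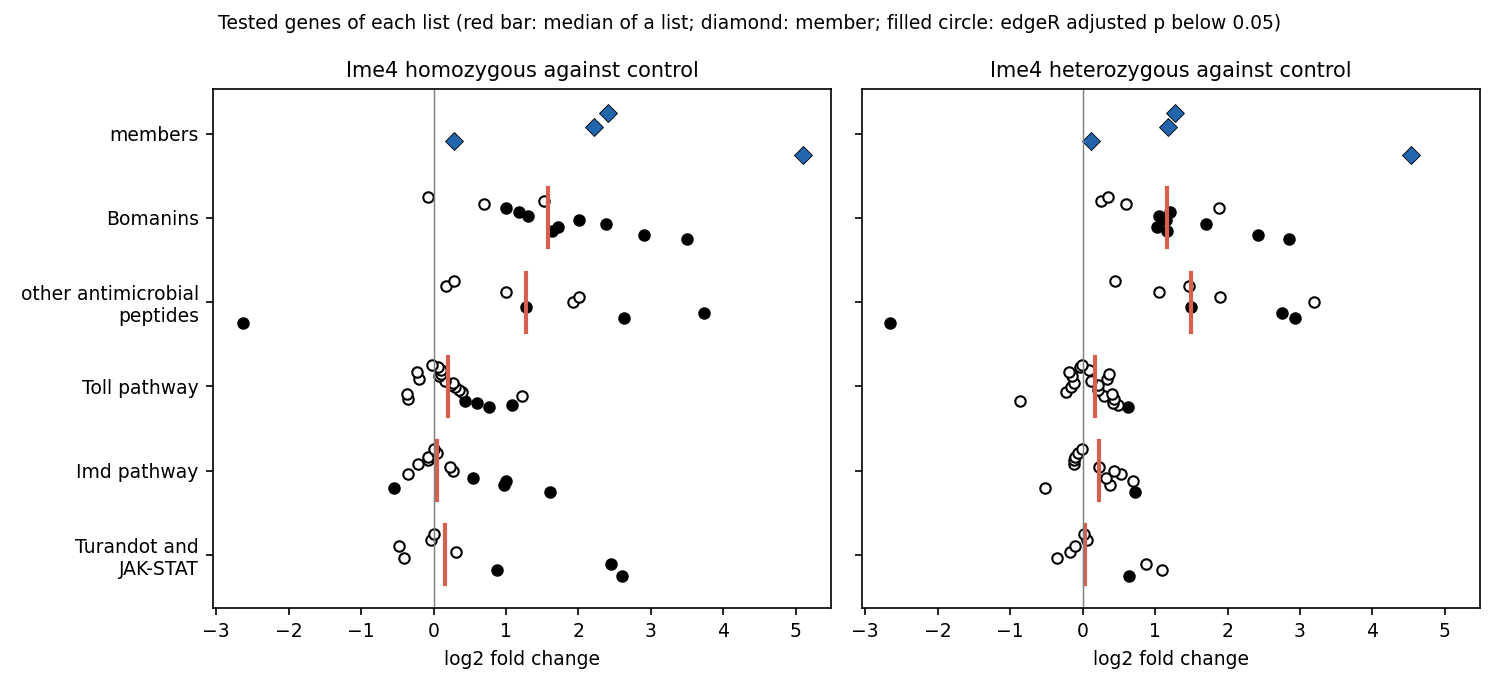
Log2 fold change of each tested gene of 6 lists in homozygous against control heads (left) and heterozygous against control heads (right); both panels share the control libraries. Members are diamonds, list genes circles (filled where edgeR's adjusted p is below 0.05), and the red bar is a list's median: the Bomanins lie mostly to the right of 0, with medians of 1.58 and 1.16, and the pathway lists centre near 0.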

How the data were processed

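The authors deposited 1 table of raw read counts per gene for each of 9 libraries, and no normalized values were used. Per the submitters' processing notes, CASAVA 1.8.4, STAR 2.4.0h, HTSeq 0.6.1 and DESeq2 1.6.3 were used with BDGP6; the strand setting is not given in the sources used here. Per the labels' protocols, poly(A) RNA was selected and libraries were directional. Each table holds 17558 genes and 5 lines of reads not counted in a gene, which were kept out of library sizes. Symbols, coordinates and exon lengths are from Ensembl's BDGP6 annotation, which held 17252 of the identifiers. Reads shared by paralogues have no unique position and would be missing from the counts. Sequences were not used here.

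Counts were scaled by TMM (factors 0.958 to 1.07) in edgeR 4.0.16 (R 4.3.3). filterByExpr (minimum count 10, minimum total 15) left 8972 genes, 4 of the 6 members among them. edgeR's quasi-likelihood test ran on 3 group means over all 9 libraries, with Benjamini-Hochberg adjustment and a threshold of 0.05, and was tested on simulated data. Log2 CPM used a prior count of 2. The correction for exon length took each gene's deviation from its mean log2 CPM over the libraries. In each library a lowess trend of these deviations on log exon length entered the fit as an offset. It covers 98.0% of tested genes. The alternatives were RLE size factors, no filter, DESeq2 1.42.0, limma-voom (limma 3.58.1), 2-group fits, a replicate block, exon length and left-out libraries. Members and lists were chosen with earlier results of these data known. Named genes are the members, Mettl3, their family, neighbours within 25 kb that were called or nearest, up to 4 genes with the lowest p per list and comparison, and the 3 genes most like each member; part of them is named. No 2 libraries were identical.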

Additional observations from a re-analysis of the deposited data

How the results depend on the processing

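The number of genes called was 1765 in homozygous and 836 in heterozygous heads against control and 492 between the Ime4 groups. Leaving out 1 library at a time gave 1130 to 2477, 362 to 1442 and 139 to 1099. The homozygous count against control moved by over 1.5 times without control replicate 2 (1130). The heterozygous count did so without homozygous replicate 3 (1442), heterozygous replicate 1, 2 or 3 (395, 446 and 362) or control replicate 1, 2 or 3 (516, 423 and 532). The count between the Ime4 groups did so without homozygous replicate 3 (1099) or heterozygous replicate 1, 2 or 3 (139, 152 and 172). With only the 2 groups compared in the fit the heterozygous against control count was 1370, and without homozygous replicates 1 and 2 it was 1361. The homozygous against heterozygous count was 806 without a filter on low counts and 802 without homozygous replicates 1 and 2. The cause of these changes was not tested. Other size factors, DESeq2, limma-voom and the exon length correction kept the counts within 1.5 times. Without homozygous replicates 1 and 2, betaTry and Listericin turned direction in homozygous against control heads, at -0.56 and -0.53.

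Libraries with the same replicate number did not deviate together: deviations from group means correlated between -0.0659 and 0.117 for the same number and between -0.114 and 0.114 for other numbers. With the replicate number as a block 1664, 777 and 451 genes were called. The members called were again 3, 3 and 2, a description only, since they were chosen with these values known.

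Drsl4 kept its direction in all alternatives, from 4.66 to 5.37 in homozygous and 4.22 to 4.80 in heterozygous against control heads, as did Dso1 and Dso2. Depth limits Drsl2 and Drsl3, which had at most 6 reads in a library.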
